A study of Arabidopsis thaliana with 20 samples.

Results

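Transcript levels of 10 core circadian clock genes were described in rosettes of Arabidopsis thaliana, by their gene identifiers, out of 32744 genes counted in each library. The morning genes are CCA1 (AT2G46830), LHY (AT1G01060), RVE8 (AT3G09600), PRR9 (AT2G46790) and PRR7 (AT5G02810). The evening genes are PRR5 (AT5G24470), TOC1 (AT5G61380), GI (AT1G22770), LUX (AT3G46640) and ELF3 (AT2G25930). All 10 passed the minimum of a mean of 10 counts over the libraries, as did 18442 genes in all.

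The plants were Col-0 wild type, stratified for 3 days, grown for 8 days before transfer to an automated platform and kept on it for 19 days at 21 °C by day and 19 °C by night. Soil water was 60% and light 15000 lux for every library. The libraries carry 2 labels, N-limiting (2.5 mM nitrate) and N-sufficient (5 mM nitrate), with 10 replicates each. The description of the series gives 5 biological replicates, so whether all 10 libraries are biologically independent is not settled by the sources used here. The 10 N-limiting libraries and the 10 N-sufficient libraries of the same number held the same count for all 32744 genes, so they were counted once, as 10 libraries, and no comparison of the nitrogen supplies was made. The counts are given under the N-limiting label. The labels state neither the hour of harvest nor a batch or date, nor how many plants made up a sample, and p-values therefore measure the spread between these 10 libraries.

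The plant clock is a loop of transcription factors that repress or activate each other in turn over the day. CCA1 and LHY are MYB factors that accumulate at dawn and repress evening genes, among them TOC1, by binding a short promoter motif called the evening element. PRR9, PRR7, PRR5 and TOC1 are pseudo-response regulators that follow one after the other from morning to evening and repress CCA1 and LHY. RVE8 is a related MYB factor that activates evening genes, ELF3 and LUX belong to the repressive evening complex, and GI stabilises the F-box protein ZTL, which marks TOC1 and PRR5 for degradation.

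The motifs that this scheme rests on were looked for in the 250 bases before each gene's annotated start, on both strands, in the RefSeq annotation of TAIR10.1. The evening element was searched as AAAATATCT, the CCA1-binding site as AAAAATCT and the G-box, a motif of light-regulated promoters, as CACGTG. The evening element was present in 3 of 10 clock genes (PRR5, TOC1 and LUX, all evening genes) and in 2.36% of 27443 protein-coding genes. The G-box was present in 5 of 10 (CCA1, LHY, PRR9, PRR7 and LUX) and in 6.49% of all genes. The CCA1-binding site was present in PRR5 only, against 6.69% of all genes. RVE8, GI and ELF3 held none of these letters in this window. Among 36 other clock genes, 7 held the evening element, 7 the G-box and 5 the CCA1-binding site.

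The stretches around the matches are shown because the G-box fell in 4 of the 5 morning genes and the evening element in evening genes. They read 5′ to 3′ on the strand of the gene, with the motif in capitals. A match on the other strand appears as its reverse complement. The PRR5 gene model holds no untranslated part, so its window may lie in transcribed sequence, and a shorter stretch is shown.
CCA1 G-box, chr2:19245371-19245430, plus strand: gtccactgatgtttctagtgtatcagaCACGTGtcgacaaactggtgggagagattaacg
LHY G-box, chr1:37919-37978, minus strand: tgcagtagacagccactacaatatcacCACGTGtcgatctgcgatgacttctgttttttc
PRR9 G-box, chr2:19232408-19232467, plus strand: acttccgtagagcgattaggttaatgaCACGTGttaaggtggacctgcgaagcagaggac
PRR7 G-box, chr5:642199-642258, minus strand: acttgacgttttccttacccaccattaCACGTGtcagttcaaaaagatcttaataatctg
PRR5 evening element, chr5:8358715-8358744, minus strand: agattttttctAGATATTTTcttttctcca
TOC1 evening element, chr5:24674786-24674845, plus strand: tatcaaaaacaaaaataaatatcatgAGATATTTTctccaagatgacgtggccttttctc
LUX evening element, chr3:17182963-17183022, plus strand: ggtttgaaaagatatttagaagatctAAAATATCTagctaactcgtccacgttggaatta

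Counted from the first base of the gene, the evening element began at position -187 in PRR5, -151 in TOC1 and -53 in LUX. The G-box began at -193 in CCA1, -80 in LHY, -201 in PRR7 and -193 in LUX. PRR9 held a pair of G-boxes, at -244 and -172. A match describes letters and is no measurement of binding.

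The libraries held 41423334 to 60323158 counts, of which chloroplast genes took 63.9% to 72.3% and nuclear genes 11000694 to 19583758 counts. Levels are given as CPM, the usual count scaled by library size over all counted reads, with TMM factors (trimmed mean of M-values). A pair of libraries stood at the ends of many clock genes. Replicate 10 was the deepest, with 19583758 nuclear counts and a chloroplast share of 66.5%, and replicate 3 had the fewest nuclear counts, 11000694, with a chloroplast share of 72.3%. Many results that rest on them are given with and without them. Others are given with all libraries only. All 4 leaf markers were abundant, together at 10655 to 13298 CPM. Root markers summed to 249 to 722 counts, mostly from PYK10, which had 245 to 710 counts and a mean of 11.8 CPM. CASP1 had 2 to 12 counts, WOX5 0 to 5 and RHD6 0 in every library. Flower markers summed to 2 to 7 counts. Seed markers summed to 0 to 2 counts.

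Among the dawn MYB factors, CCA1 ran at 4.67 CPM in its lowest library, a median of 8.76 CPM and 15.3 CPM in its highest, which is 155 to 1000 counts. Replicate 3 was lowest and replicate 10 highest, 3.28-fold apart, and the other 8 libraries lay between 8.10 and 11.0 CPM. LHY, the partner of CCA1, ran at 4.70, 6.75 and 9.63 CPM as lowest, median and highest. Replicates 3 and 10 were again its ends, and replicate 6, at 4.74 CPM, lay next to replicate 3. RVE8, the activator of evening genes, ran at 2.43, 2.82 and 4.00 CPM. Its highest library was also replicate 10, and its lowest was replicate 9, followed closely by replicate 3 at 2.44 CPM.

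The repressors PRR9 and PRR7 spanned 1.83-fold and 1.43-fold. PRR9 ran at 11.6, 16.1 and 21.2 CPM as lowest, median and highest, and PRR7 at 23.2, 27.4 and 33.3 CPM. For both genes replicate 3 was lowest and replicate 10 highest. Thus replicate 10 held the highest level of all 5 morning genes, and replicate 3 the lowest level of CCA1, LHY, PRR9 and PRR7.

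TOC1, the evening repressor of CCA1, ran at 2.77, 3.54 and 3.97 CPM, with replicate 10 lowest and replicate 3 highest, the opposite order to CCA1. Its libraries fell into 2.77 to 3.07 CPM in replicates 10, 6, 1 and 4 and 3.51 to 3.97 CPM in the other 6. PRR5 ran at 1.83, 2.51 and 4.58 CPM. It was high in replicates 8, 9 and 3, at 4.58, 3.81 and 3.55 CPM, and at most 2.72 CPM in the other 7.

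GI ran at 12.7, 16.6 and 24.9 CPM, with replicates 9 and 8 highest at 24.9 and 23.4 CPM and no other library above 18.9 CPM. LUX, the DNA-binding member of the evening complex, ran at 0.771, 1.12 and 1.50 CPM, from 41 to 73 counts. Replicates 7, 2 and 3 were high, between 1.47 and 1.50 CPM, and the rest were at most 1.19 CPM. ELF3, the scaffold of the same complex, ran at 2.17, 3.05 and 3.61 CPM. Replicate 6 was lowest, and the other 9 libraries lay between 2.82 and 3.61 CPM.

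**Figure D1:**
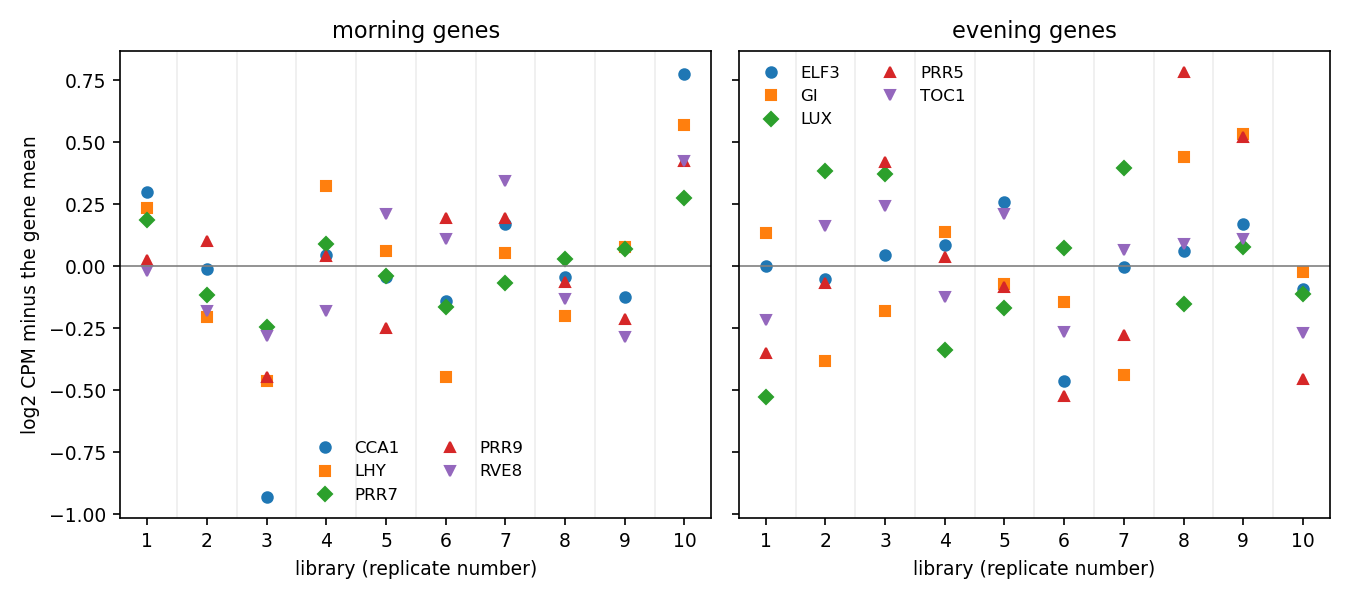
The horizontal axis gives the library by replicate number and the vertical axis log2 CPM minus the gene's mean over the 10 libraries, for the 5 morning genes (left) and the 5 evening genes (right). All morning genes lie below 0 in replicate 3 and above 0 in replicate 10, where CCA1 reaches -0.93 and 0.78. All evening genes lie below 0 in replicate 10 and above 0 in replicate 9, and on both sides of 0 in the other 8 libraries.

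Library scaling cancels in the ratio of the counts of 2 genes within a library. CCA1 over TOC1 was 5.52 in replicate 10 and 1.17 in replicate 3, with a median of 2.64 over the 10 libraries, a 4.71-fold range. In the other 8 libraries this ratio lay between 2.23 and 3.82. PRR9 over PRR5 was 11.1 in replicate 10 and 3.25 in replicate 3, and it was 3.30 and 3.58 in replicates 8 and 9. CCA1 over LHY, both morning genes, spanned 0.994 to 1.71, a 1.72-fold range. PRR7 over LHY spanned 3.46 to 5.17, a 1.50-fold range.

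The coefficient of variation (CV) of CPM across libraries was largest for PRR5, 33.2%, and CCA1, 28.9%, among the 10 genes, and smallest for PRR7, 11.2%. LHY had 23.4%, GI 22.9%, LUX 22.5%, RVE8 18.7%, PRR9 17.4%, TOC1 13.7% and ELF3 12.6%. The median over the 10 genes was 20.6%, against 15.5% over 18255 nuclear genes. Without replicate 10 the median over the clock genes was 17.7%. Counting error alone gives a CV of 13.8% at the depth of LUX, 8.04% for TOC1, 8.42% for ELF3 and 4.71% for CCA1. The biological coefficient of variation of edgeR, which takes counting error out, was 17.4% as the median of the 10 genes, against 14.0% over nuclear genes. By that measure PRR5 exceeded 91.5% of nuclear genes, CCA1 89.3% and ELF3 27.2%. Leaving out replicate 6 brought the CV of ELF3 to 7.89%.

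Levels of different genes were compared per kilobase of exon. PRR7 averaged 8.56 ± 0.96 CPM per kb (SD, n = 10), PRR9 7.48 ± 1.30, GI 4.09 ± 0.94 and CCA1 3.41 ± 0.99 CPM per kb. LHY followed with 1.94 ± 0.45, RVE8 with 1.29 ± 0.24, TOC1 with 1.20 ± 0.16 and, last, LUX with 0.295 ± 0.067 CPM per kb. ELF3, between TOC1 and LUX, had a median of 1.11 CPM per kb (SD 0.14, n = 10). PRR5 stood between LHY and RVE8 at 1.65 ± 0.55 CPM per kb, on a model that holds only its coding length of 1677 bases. Between neighbours in this order, the within-library log2 difference exceeded its SD over libraries for PRR9 over GI (0.88 ± 0.46), CCA1 over LHY (0.79 ± 0.25) and ELF3 over LUX (1.93 ± 0.41), each in 10 of 10 libraries. In the other 6 neighbouring pairs, such as PRR7 and PRR9 (0.21 ± 0.23) or TOC1 and ELF3 (0.12 ± 0.17), the mean difference was smaller than its SD. This describes the spread and is no test of equal levels. The LUX model holds 3916 exonic bases, of which 1073 are coding, so its level per kb depends on that length. In CPM not divided by length, LUX averaged 1.16 and ELF3 3.03. LUX shares 698 exonic bases with a gene on the other strand, AT3G46650, which was listed with 18 to 71 counts. ELF3 shares 24 exonic bases with ALPHA-VPE, listed with 0 to 6 counts. The sources used here do not state the strand setting of the counting, so reads in shared bases cannot be assigned with certainty.

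Covariation was measured as the correlation of log2 CPM over the 10 libraries for all 45 pairs, with permutation tests of 100000 resamples, two-sided and not adjusted for the number of pairs. The morning genes covaried positively in 10 of 10 pairs, with a median r of 0.66. Pairs of evening genes had a median r of 0.44, with 7 of 10 positive. Pairs of a morning and an evening gene had a median r of -0.41, with 5 of 25 positive. An unadjusted permutation p under 0.05 was found for 6 of the 10 morning pairs, 2 of the 10 evening pairs and 5 of the 25 mixed pairs, 13 of 45 in all. Without replicates 3 and 10 the medians were 0.30 within the morning class, 0.41 within the evening class and -0.20 between them.

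**Figure D2:**
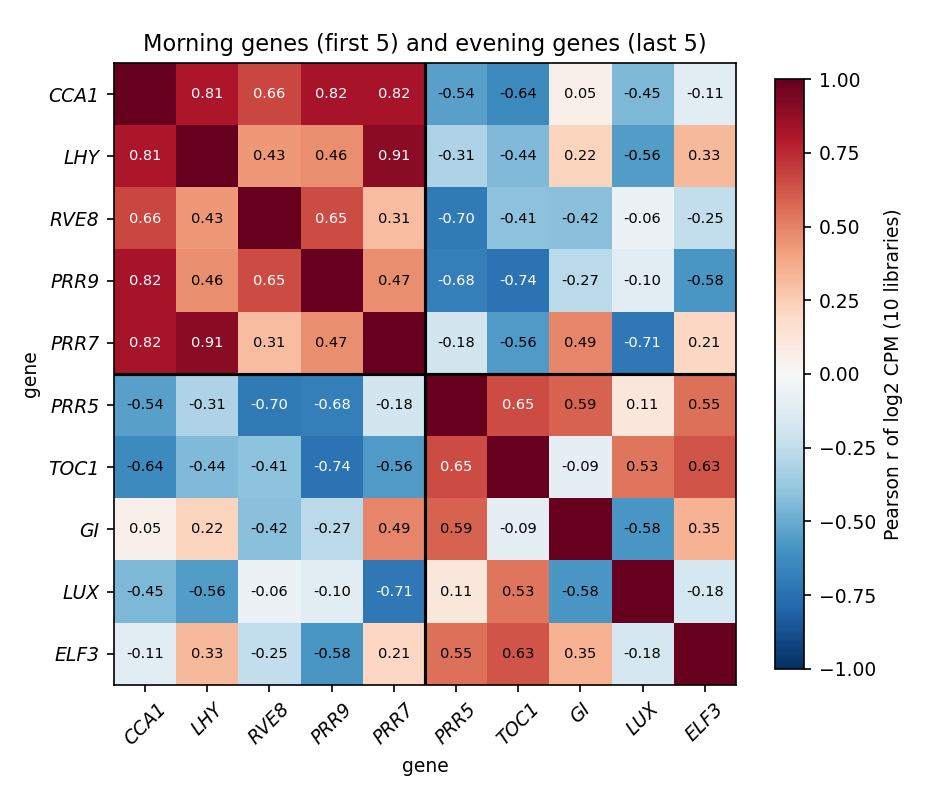
The matrix gives Pearson r of log2 CPM over 10 libraries for every pair, morning genes first, with the colour scale from -1 (blue) to 1 (red). The upper left block of morning pairs is positive throughout, from 0.31 to 0.91, and most of the mixed block is negative, down to -0.74.

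LHY and PRR7 made the closest of the 45 pairs, with r = 0.91 (permutation p = 0.00068) and rho = 0.95 (permutation p = 0.00017). The correlation stayed at 0.79 without replicates 3 and 10. CCA1 correlated with PRR9 (r = 0.82, permutation p = 0.00536; rho = 0.54, permutation p = 0.116), PRR7 (r = 0.82, permutation p = 0.00254; rho = 0.72, permutation p = 0.0235) and LHY (r = 0.81, permutation p = 0.00295; rho = 0.76, permutation p = 0.0149). Without replicates 3 and 10, r fell to 0.30 for PRR9, 0.53 for PRR7 and 0.59 for LHY, so these relations rest in large part on that pair of libraries. CCA1 and RVE8 had r = 0.66 (permutation p = 0.0241; rho = 0.58, permutation p = 0.0893), and 0.29 without the same libraries. RVE8 and PRR9 had r = 0.65 (permutation p = 0.0412; rho = 0.60, permutation p = 0.0737), and 0.30 without replicates 7 and 10. With 1 library left out, LHY, PRR9 and PRR7 each kept a permutation p under 0.05 with CCA1 in 10 of 10 fits, RVE8 with CCA1 in 8 and RVE8 with PRR9 in 3.

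The other 4 morning pairs did not pass the test. For LHY with PRR9 and PRR9 with PRR7, r was 0.46 (permutation p = 0.177; rho = 0.25, permutation p = 0.49) and 0.47 (permutation p = 0.173; rho = 0.21, permutation p = 0.561). Without replicates 3 and 10 it was -0.32 and -0.40. LHY with RVE8 had r = 0.43 (permutation p = 0.212; rho = 0.25, permutation p = 0.49), and -0.11 without replicates 3 and 10. RVE8 with PRR7 had the lowest r of the 10 morning pairs, 0.31 (permutation p = 0.389; rho = 0.20, permutation p = 0.587), and 0.01 without replicates 7 and 10. Whether LHY followed PRR7 more closely than PRR9 was not tested.

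Opposite movement was clearest for PRR9 and TOC1, with r = -0.74 (permutation p = 0.0144) and rho = -0.81 (permutation p = 0.00717), and r = -0.54 without replicates 3 and 10. PRR9 and PRR5 had r = -0.68 (permutation p = 0.0282; rho = -0.70, permutation p = 0.0302), and -0.59 without them. RVE8 and PRR5 had r = -0.70 (permutation p = 0.0254; rho = -0.75, permutation p = 0.0179), and -0.64 without replicates 7 and 10. CCA1 and TOC1, the pair that repress each other, had r = -0.64 (permutation p = 0.0272; rho = -0.55, permutation p = 0.107), and -0.27 without replicates 3 and 10. PRR7 and LUX had r = -0.71 (permutation p = 0.0219; rho = -0.64, permutation p = 0.0555), and -0.76 without them. PRR9 and ELF3 had rho = -0.81 (permutation p = 0.00703) with r = -0.58 (permutation p = 0.0772), and r = -0.78 without replicates 3 and 10. Of the 25 mixed pairs, 5 had a positive r. Among them PRR7 and GI had rho = 0.66 (permutation p = 0.0429) with r = 0.49 (permutation p = 0.149), and r = 0.65 without replicates 3 and 10. LHY and ELF3 had r = 0.33 (permutation p = 0.368; rho = 0.21, permutation p = 0.559), and r = 0.68 without replicates 3 and 10. With 1 library left out, a permutation p under 0.05 was kept in 8 of 10 fits for PRR9 with TOC1 and for PRR7 with LUX, 7 for RVE8 with PRR5 and for CCA1 with TOC1, and 5 for PRR9 with PRR5.

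Among the evening genes, TOC1 moved with PRR5 (r = 0.65, permutation p = 0.0453; rho = 0.66, permutation p = 0.0437) and with ELF3 (r = 0.63, permutation p = 0.0317; rho = 0.58, permutation p = 0.088). Without the 2 libraries farthest from the median of the first gene, r was 0.76 for PRR5 with TOC1 and 0.28 for TOC1 with ELF3. Without replicates 3 and 10 it was 0.52 and 0.67. Each of these pairs kept a permutation p under 0.05 in 5 of the 10 fits with 1 library left out. GI and TOC1 had r = -0.09 (permutation p = 0.796; rho = -0.19, permutation p = 0.604) and -0.27 without replicates 6 and 10. GI and LUX had r = -0.58 (permutation p = 0.0807; rho = -0.64, permutation p = 0.0539), and -0.93 without replicates 8 and 9, in which GI was highest.

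These libraries also shared a broad axis. The first principal component of nuclear genes outside the clock lists held 39.3% of the variance. Its scores were uneven, from -34.4 to -25.5 in replicates 1, 9, 8 and 4, 0.47 in replicate 10 and 15.3 to 32.7 in the other 5, too few on either side to test a relation within it. Its correlations with the clock genes are therefore a description. GI had r = -0.83 and rho = -0.82, LUX r = 0.76 and rho = 0.62, PRR7 r = -0.74 and rho = -0.84, and LHY r = -0.53 and rho = -0.72. Without replicates 1 and 9 these r were -0.83, 0.79, -0.68 and -0.50. For the other 6 clock genes r lay between -0.38 and 0.33 and rho between -0.43 and 0.30. On the residuals from this component, PRR7 and LUX had r = -0.34, LHY and PRR7 0.90, CCA1 and PRR9 0.88, CCA1 and TOC1 -0.59 and PRR5 and TOC1 0.83. With scaling on nuclear genes only, CCA1 and LHY had r = 0.80 and CCA1 and TOC1 -0.65. The values on residuals and with nuclear scaling are given with all libraries only.

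Which genes of the whole table followed CCA1 was then tested with the quasi-likelihood test of edgeR for a slope on log2 CPM of CCA1, adjusted by Benjamini-Hochberg over 18441 genes. A slope of 1 means that a gene doubles where CCA1 doubles. At an adjusted p under 0.05, 113 genes were called (0.613%), of which 89 had a positive slope (0.483%) and 24 a negative one (0.13%). None of the other 9 core clock genes was among them. With DESeq2 1047 genes were called, 3 core clock genes among them: LHY (DESeq2 adjusted p = 0.00658), PRR9 (adjusted p = 0.0074) and PRR7 (adjusted p = 0.0201). With the first principal component as a further term edgeR called 1858. Without replicate 3 no gene was called by edgeR (1287 at an unadjusted p under 0.05), and without replicate 10, 7 were.

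At an unadjusted p under 0.05, a level that 18.8% of all genes reached, the count was 6 of 9 core clock genes, 4 with a positive and 2 with a negative slope. It was 2 of 9 (LHY and PRR9) without replicate 10, where 3367 of 18383 genes reached that level. It was 4 of 9 without replicate 3 (1287 of 18470 genes) and 4 of 9 without replicate 1 (2937 of 18411 genes). Without replicates 3 and 10 it was 0 of 9 (740 of 18411 genes). LHY had a slope of 0.64 (SE 0.15, adjusted p = 0.0665) and PRR9 0.49 (SE 0.12, adjusted p = 0.0677). RVE8 had 0.42 (adjusted p = 0.171) and PRR7 0.31 (adjusted p = 0.113). The slopes of TOC1, -0.31 (adjusted p = 0.238), and PRR5, -0.60 (adjusted p = 0.265), had the opposite sign. LUX, ELF3 and GI had slopes of -0.32, -0.06 and 0.02, with unadjusted p of at least 0.183. The median slope over the 9 genes was 0.02, against 0.00067 over all genes. With the first principal component as a term, LHY (adjusted p = 0.00988), RVE8 (adjusted p = 0.00998), PRR9 (adjusted p = 0.00213), PRR7 (adjusted p = 0.0394) and PRR5 (adjusted p = 0.0362) were called by edgeR. They were 5 of 9, where 1858 of 18441 genes were called. That component has uneven scores and was computed from nuclear genes that were themselves tested, so these p-values are a description. The fit with this component and the DESeq2 fit are given with all libraries only.

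Of the 36 other clock genes, 31 were measured well enough to be tested, and 2 of the 4 LNK genes were called, both with a positive slope. LNK1, a coactivator that binds RVE8, ran at 10.6 CPM in replicate 3, a median of 20.0 CPM and 29.1 CPM in replicate 10. Its slope of 0.87 (SE 0.11, adjusted p = 0.0166) had the smallest p of all 18441 genes. LNK2, its close relative, ran at 16.6, 22.5 and 31.6 CPM as lowest, median and highest, with replicates 3 and 10 again at the ends, and a slope of 0.52 (SE 0.098, adjusted p = 0.0393). LNK3 (slope 0.10, adjusted p = 0.59) and LNK4 (slope -0.04, adjusted p = 0.886) did not pass the test. The slope of LNK1 stayed between 0.81 and 0.96 with any 1 library left out, but its adjusted p was 0.491 without replicate 3 and 0.0554 without replicate 10. LNK2 kept an adjusted p under 0.05 in 1 of these 10 fits.

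**Figure D3:**
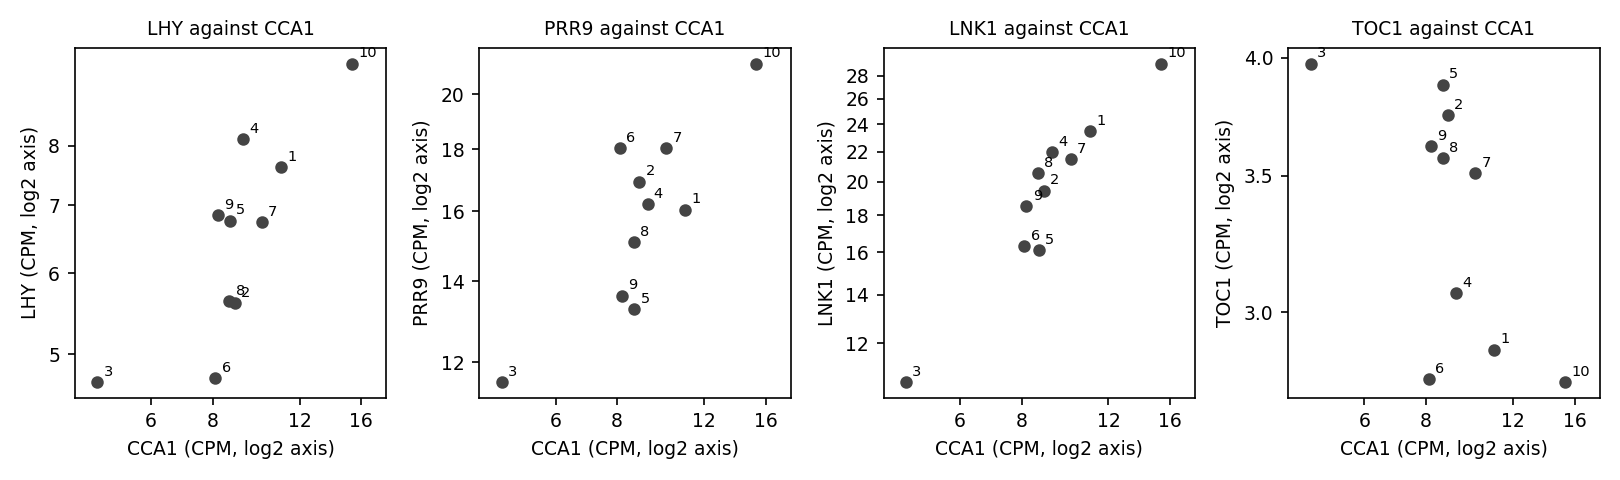
Each panel plots the CPM of LHY, PRR9, LNK1 or TOC1 against the CPM of CCA1, both on log2 axes, with 1 point per library and the replicate number beside it. Replicates 3 and 10 mark the ends of CCA1, at 4.67 and 15.3 CPM, in every panel, and TOC1 runs the other way at 3.97 and 2.77 CPM.

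In the remaining lists none of the tested genes was called against CCA1. These were 6 LHY/CCA1-like MYB factors (median slope -0.04), and PRR3 and CHE, a TCP factor that binds the CCA1 promoter (median -0.19). The others were 3 blue-light F-box proteins (median -0.29), 9 clock outputs (median 0.31) and 7 further clock regulators (median 0.15). RVE2, ELF4, BOA, COR27 and COR28 fell below the minimum. ELF4, the third member of the evening complex, was listed with 0 or 1 count in every library.

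**Figure D4:**
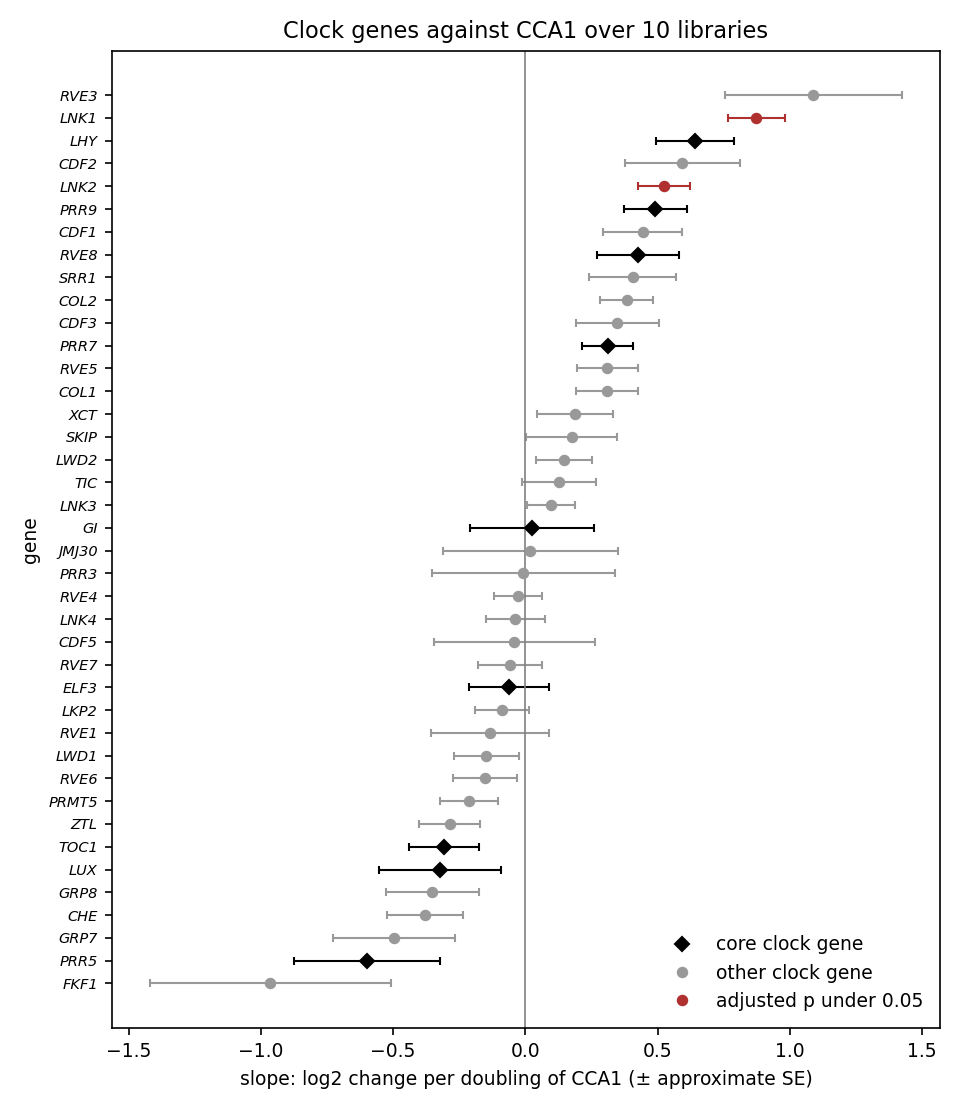
The slope of each tested clock gene on CCA1, in log2 units per doubling of CCA1, is drawn with its approximate SE, core clock genes as diamonds and other clock genes as circles, and red marks an adjusted p under 0.05. LNK1 at 0.87 and LNK2 at 0.52 are called, next to LHY at 0.64 and PRR9 at 0.49, and PRR5 lies at -0.60 near the lower end.

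Against TOC1 no gene was called by edgeR (0% of 18441), with 1232 at an unadjusted p under 0.05 (6.68%) and 4 called by DESeq2. Of the 9 other core clock genes, 3 reached an unadjusted p under 0.05. Without replicate 6 the count was 6 of 9, with 3236 of all genes at that level, and without replicate 10 it was 2 of 9, with 922. Without replicate 3 it stayed 3 of 9, with 469 of all genes. CCA1 had a slope of -1.36 (SE 0.47), PRR9 -0.93 (SE 0.30) and PRR5 1.54 (SE 0.55), each with an adjusted p of 0.73. The slope of CCA1 was -0.85 without replicate 10.

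The same test was run with each of the other 8 genes in turn, an addition made after the counts had been seen. Against PRR7, 2657 genes were called (14.4%), of which 1520 had a positive slope (8.24%) and 1137 a negative one (6.17%). CCA1 (slope 2.11, SE 0.43, adjusted p = 0.00987) and LHY (slope 1.88, SE 0.31, adjusted p = 0.0049) were among them, 2 of 9 core clock genes. Of the 31 other clock genes tested, LNK1 and LNK2, the CONSTANS-like genes COL1 and COL2, and CDF3 had called positive slopes. CHE and ZTL had called negative ones, and the rest were not called. Against GI, 3201 genes were called (17.4%; 10.1% positive, 7.3% negative) and none of the 9 core clock genes. Of the 31 other clock genes, CDF3, SKIP and TIC had called positive slopes on GI and CDF5 a negative one, and the rest were not called. Against LUX, 1409 genes were called (7.64%; 2.19% positive, 5.46% negative), again with none of the 9. Of the 31 other clock genes, only CHE, with a positive slope, and CDF3, with a negative one, were called. PRR7, GI and LUX had the largest Pearson r in size with the first principal component among the 10 genes, although by rank LHY (rho = -0.72) exceeded LUX (rho = 0.62). The part of that component in these counts was not tested. Against LHY, RVE8, PRR9, PRR5 and ELF3 no gene was called by edgeR, with 3373, 1791, 1720, 1551 and 835 genes at an unadjusted p under 0.05. DESeq2 was not run for these 8 genes.

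At an unadjusted p under 0.05, the other core clock genes counted 5 of 9 against PRR5, where 8.41% of all genes reached that level, and 4 of 9 against PRR9 (9.33% of all genes). They counted 3 of 9 against RVE8 (9.71% of all genes) and 2 of 9 against ELF3 (4.53%). Against PRR7 they counted 3 of 9 (31.5% of all genes), against LUX 3 of 9 (28.5%), against LHY 2 of 9 (18.3%) and against GI 1 of 9 (32.1%). The single gene against GI was PRR5, with a slope of 0.87 (SE 0.31, adjusted p = 0.0689).

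The genes most like CCA1 in pattern were ranked by Pearson r of log2 CPM over the 10 libraries, among 12253 nuclear genes whose mean reached 100 counts. F2KP, which makes and breaks down the metabolic regulator fructose 2,6-bisphosphate, came first at r = 0.98. It ran at 18.2 to 28.9 CPM. WNK6, a kinase, had 0.97, ATH13 0.97, AT5G03900 0.97 and SHM1, the mitochondrial serine hydroxymethyltransferase of photorespiration, 0.97. SHM1 ran at 251 to 548 CPM. The most opposite were CB5-D, a cytochrome b5, at -0.97, AT4G29260 at -0.97, AT4G34480 at -0.96, AVA-P4, a subunit of the vacuolar proton pump, at -0.96 and AT1G11200 at -0.96.

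For TOC1 the closest patterns were those of AT5G17610 (0.91), CSN5A, a subunit of the COP9 signalosome (0.90), SCPL34 (0.89), AT5G14105 (0.89) and AT1G14200 (0.88). The most opposite were WIN2 (-0.91), PANK1, a pantothenate kinase (-0.89), AT5G15700 (-0.88), AT4G16960 (-0.88) and APL3, a large subunit of the starch enzyme ADP-glucose pyrophosphorylase (-0.87). The closest gene was WNK8 for LHY (0.94), AT1G08110 for RVE8 (0.96), AT3G10970 for PRR9 (0.97), ABCF5 for PRR7 (0.97), AT1G08900 for PRR5 (0.94), CYP77A4 for GI (0.97), AT4G28310 for LUX (0.98) and AT5G01750 for ELF3 (0.90). These ranks are the extremes of 12253 values over the same 10 libraries and are given as a description.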

How the data were processed

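RNA-Seq was measured in rosettes as ribosomal RNA-depleted stranded libraries. Per the labels, the authors aligned reads with STAR, counted them on genes with featureCounts (build TAIR10) and deposited raw counts without normalization. Tool versions, annotation release, strand setting and treatment of multi-mapping reads are not given in the sources used here. The study's methods name only the chloroplast genome as target of the alignment, whereas 32548 nuclear genes are listed in the count files.

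The members, the lists of other clock genes and the tests were chosen with earlier results of these data known. A mean of 10 counts over the libraries was required of each gene. CPM used TMM factors over all genes, and log2 CPM a prior count of 2. Slopes were fitted with edgeR 4.0.16 in R 4.3.3 (glmQLFit, robust) on the centred log2 CPM of 1 clock gene, itself left out. The covariate carries counting error and shares the library scaling, and SEs of slopes are approximate. DESeq2 1.42.0 was an alternative. Correlations and permutation tests used numpy 2.4.6, with ranks from scipy 1.17.1. The slope and correlation code was tested on simulated data. Genes named are the members, other clock genes called, and the 5 highest and 5 lowest correlated genes for CCA1 and TOC1 (the highest for the rest). Gene models and sequences came from RefSeq TAIR10.1.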

Additional observations from a re-analysis of the deposited data

How the results depend on the processing

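The number of genes called against CCA1 was 113, and it was 114 with DESeq2 size factors, 99 with nuclear genes only and 132 without a filter. It was 1047 with the DESeq2 Wald test (640 positive, 407 negative), 1858 with the first principal component as a term (1066 positive, 792 negative), and 0 to 56 with 1 library left out. An alternative added after the data were seen, without replicates 3 and 10 together, gave 0 genes called, and median r of 0.30 within morning pairs and -0.20 between classes. The 0 genes called against TOC1 became 4 with the DESeq2 Wald test. With 1 library left out, the median CV of the clock genes ran from 17.7% to 21.2%. The slope of GI changed sign. On CCA1 it was -0.23 with the principal component, between -0.24 and 0.10 with 1 library left out, and -0.63 without replicates 3 and 10. On TOC1 it was 0.33 with the component and between -0.29 and 0.13 with 1 library left out. The slope of ELF3 on CCA1 was 0.091 without replicates 3 and 10. The cause was not tested. LHY with PRR7 kept a permutation p under 0.05 in all 15 alternatives run for it. Depth limits LUX most among the 10 genes, since counting error alone gives a CV of 13.8%. No paired analysis was possible because libraries of the same number under both labels held identical counts.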
